A study of Homo sapiens with 18 samples.

Results

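The 10 genes described here make serine and asparagine, carry one-carbon units in mitochondria, or import amino acids. They are PHGDH, PSAT1, PSPH, ASNS, SHMT2, MTHFD2, ALDH1L2, PCK2, SLC3A2 and SLC7A5. They were chosen by name, with earlier results of these data known, and found by symbol among the 60662 genes of the deposited count table. Counts of members set beside shares of all genes therefore describe the values and are no independent test. All 10 were found once and all 10 passed the filter on low counts, which kept 18592 genes. RNA came from MCF10A, an established non-malignant line of human breast epithelial cells. All cells were plated sparsely on soft polyacrylamide gels coated with Matrigel, a basement membrane extract, in medium with horse serum, EGF, insulin, cholera toxin and hydrocortisone. After 1 h the 2D cells received fresh medium, and the 3D cells received medium with 2% Matrigel, which sets around them. Each culture was harvested at 3 timepoints, which gives 6 groups of 3 libraries. The protocol names harvests 3, 12 and 21 h after plating; the pairing of these hours with the numbered timepoints rests on order alone. The labels give replicate numbers but do not say whether replicates were separate cultures, so p-values measure the spread between these libraries, which may be technical.

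Serine is made from a glycolytic intermediate by PHGDH, PSAT1 and PSPH in turn, and ASNS makes asparagine from aspartate with glutamine as the nitrogen donor. In mitochondria SHMT2 moves a carbon from serine to folate, MTHFD2 oxidises the folate-bound unit, and ALDH1L2 can burn it to carbon dioxide while making NADPH. PCK2 turns mitochondrial oxaloacetate into phosphoenolpyruvate, and SLC3A2 pairs with SLC7A5 as the surface carrier of large neutral amino acids. Many of these genes are textbook targets of ATF4, the transcription factor that cells translate more when amino acids run short or the endoplasmic reticulum is stressed.

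At timepoint 1 no member differed between 2D and 3D. By timepoint 3 PCK2 was 2.96-fold and ASNS 2.83-fold lower in 3D than in 2D. Both had risen in 2D since timepoint 1, while their changes in 3D did not pass the test. PHGDH, PSAT1 and SLC3A2 were lower in 3D at timepoint 3 when libraries of one replicate number were paired. These tests left out a 2D library of timepoint 3, described below. With all 18 libraries edgeR called 0 genes between the cultures there, and the 2D rise of ASNS was lost (adjusted p = 0.141). With pairing as well PCK2, ASNS and SLC3A2 passed, and PHGDH and PSAT1 did not (adjusted p = 0.186 and 0.182). PSPH rose with time in both cultures, and the mitochondrial folate enzymes SHMT2, MTHFD2 and ALDH1L2 passed in no comparison of the unpaired fit. With pairing MTHFD2 fell from timepoint 1 to 2 in both cultures (edgeR adjusted p = 0.00839 in 2D and 0.0392 in 3D). With pairing and all 18 libraries its fall in 3D did not pass (adjusted p = 0.0644).

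Counts summed to between 49.8 M and 93.9 M in a library, or 4.73 to 5.73 times the total that the file headers give for 17 libraries. A read may have been counted more than once, and counts per 1000000 (CPM, scaled by edgeR's TMM method) are compared between libraries and never between genes. All 9 basal epithelial markers passed the filter, with summed levels of 4920 to 14500 CPM over the libraries. Of 7 luminal markers 6 passed, with sums of 470 to 1490 CPM, nearly all from KRT8 and KRT18, and PGR at 0. Of 7 fibroblast markers 4 passed, with sums of 117 to 268 CPM, nearly all from DCN, and COL3A1 at 0. Of 6 blood and endothelial markers 3 passed, with sums of 7.07 to 21.4 CPM, mostly from CD68, and CD3E at 0.

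One library stands apart. The library labelled 2D timepoint 3 replicate 1 is listed by its labels with the raw table alone, and it was left out of the tests, so that the 2D group of timepoint 3 had n = 2. Its log2 CPM over genes correlated best with the mean of the 3D libraries of timepoint 3, at r = 0.9883, and at r = 0.9739 with the other 2D libraries of that timepoint. In it PCK2 was at 38.5 CPM, ASNS at 60.3 CPM and PSAT1 at 34.2 CPM, each inside the range of the 3D libraries. PHGDH, at 172 CPM, lay just under that range. SLC3A2 at 981 CPM and SLC7A5 at 753 CPM lay between the 2 cultures. For each member called at timepoint 3, and for each list, the outcome with this library is given beside the result.

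Short stretches upstream of RefSeq start sites show where motifs of known regulators lie in the members that differed, or nearly did, between the cultures. RefSeq promoters (GRCh38.p14) were at hand for 7 of the 10 members, in 10 windows. PSPH, SHMT2 and ALDH1L2 had no entry. RefSeq starts can differ from the gene positions given further below. The stretches of ASNS and SLC3A2 lie inside those gene spans, and that of SLC3A2 precedes only 1 of its RefSeq starts. The PHGDH stretch lies well before the gene start given, 119719627. On both strands of the 250 bases before each start, 4 motifs were searched, none of which contains another. These were TGATGNAA, the C/EBP-ATF response element that ATF4 dimers read, CACGTG, the E-box of MYC and related factors, TGACNNNGC, the core of the antioxidant response element, and CCAAT, read by NF-Y. They occur in 3.14%, 6.34%, 10.9% and 32.0% of 35116 RefSeq promoters. In the lines below, given 5′ to 3′ on the gene's strand, capitals mark the match.
ASNS, chr7:97872458-97872487, minus strand: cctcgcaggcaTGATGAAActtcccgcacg
PSAT1, chr9:78297002-78297087, plus strand: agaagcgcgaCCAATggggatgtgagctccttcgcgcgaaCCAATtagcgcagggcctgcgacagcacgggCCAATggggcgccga
PHGDH, chr1:119711851-119711879, plus strand: gagtatttccgtCCAATcaaaaggagact
PCK2, chr14:24094106-24094134, plus strand: ggacccagtcctCCAATgggagagatggg
SLC3A2, chr11:62881652-62881680, plus strand: cgagggtgggTGACTCAGCgtcctccttc
SLC7A5, chr16:87869620-87869649, minus strand: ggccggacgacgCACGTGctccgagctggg
ASNS alone of the members with an entry held TGATGNAA, 68 to 61 bases before its RefSeq start. CCAAT was found in 5 members, 3 times within the PSAT1 stretch, and CACGTG and TGACNNNGC in 1 member each. These counts are of members, 7 of them in 10 windows, while the percentages are of promoters, so the 2 are not directly comparable. The CCAAT matches in MTHFD2 and in another window of SLC3A2 are counted but not printed. All are matches of letters in a window and not measured binding sites.

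PHGDH makes the first and committed step of serine synthesis (chromosome 1, 119719627 to 119744213, plus strand; hg38 positions of the deposited table here and below). In 2D it was at 374, 250 and 315 CPM at timepoint 1, 197, 199 and 185 CPM at timepoint 2, and 367 and 431 CPM at timepoint 3. In 3D it was at 370, 276 and 296 CPM, then 229, 174 and 199 CPM, then 178, 183 and 285 CPM. Every library of timepoint 2 lay below every library of timepoint 1 in its culture. At timepoint 3 both 2D libraries lay above all 3D libraries, of which replicate 3, at 285 CPM, lay inside the range of 3D timepoint 1; the 3D change from timepoint 1 to 3, -0.55 on the log2 scale, did not pass (edgeR adjusted p = 0.0935). The log2 difference of 3D from 2D was 0.05 at timepoint 2 (SE 0.20, edgeR adjusted p = 0.917) and -0.89 at timepoint 3 (SE 0.22). The latter missed the threshold by edgeR at an adjusted p of 0.0568 and passed with the replicate number as a block, at -0.95 with an adjusted p of 0.00659. With all 18 libraries it was -0.59 with an adjusted p of 0.462, and it did not pass with the block added (adjusted p = 0.186). From timepoint 1 to 2 PHGDH fell in 3D by 0.65 on the log2 scale (adjusted p = 0.0415). That call was lost without 3D timepoint 1 replicate 1 or 2 (adjusted p = 0.161 and 0.06), without timepoint 2 replicate 2 or 3 (0.114 and 0.102), and with all 18 libraries (0.123). In 2D the value was -0.69, with an adjusted p of 0.0536 that became 0.0158 with the block and 0.0334 without timepoint 1 replicate 2. Without 3D timepoint 3 replicate 3, at 285 CPM the highest of its group, the difference at timepoint 3 was -1.15 and passed (adjusted p = 0.022).

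PSAT1, the aminotransferase of the second step (chromosome 9, 78297125 to 78330093, plus strand), started in 2D at 35, 29.9 and 30.3 CPM, and was at 46, 37.7 and 44.2 CPM at timepoint 2 and 49.3 and 71.3 CPM at timepoint 3. In 3D it was at 37.5, 28.1 and 35.2 CPM, 34.7, 22.5 and 40.6 CPM, and 35.9, 28.2 and 48.9 CPM. At timepoint 3 the highest 3D library reached almost the lowest 2D library. PSAT1 rose in 2D from timepoint 1 to 3 by 0.93 on the log2 scale (SE 0.26, edgeR adjusted p = 0.0475) and its change in 3D was 0.16 (adjusted p = 0.702). The rise in 2D lost its call with all 18 libraries (0.70, adjusted p = 0.148), by limma-voom, and without any one of the 5 libraries compared, at adjusted p of 0.0838 to 0.371. The log2 difference between the cultures at timepoint 3 was -0.68 (SE 0.26, adjusted p = 0.171; with the block -0.73, adjusted p = 0.0136). Adding the 18th library gave -0.45 (adjusted p = 0.516), and it did not pass with the block added (adjusted p = 0.182).

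PSPH, the phosphatase of the last step (chromosome 7, 56011064 to 56051444, minus strand), followed another course. It was at 15.8, 19 and 17.2 CPM in 2D against 16.7, 16.2 and 16.5 CPM in 3D at timepoint 1. At timepoint 2 it was at 30, 30 and 28.4 CPM in 2D against 29.1, 23.5 and 30.7 CPM in 3D. By timepoint 3 it was at 26.3 and 35.9 CPM in 2D against 27.5, 29.2 and 30.8 CPM in 3D. Every later library of either culture lay above every library of timepoint 1. The rise from timepoint 1 to 3 was 0.85 on the log2 scale in 2D (SE 0.17, edgeR adjusted p = 0.00782) and 0.83 in 3D (SE 0.15, adjusted p = 0.00201), and most of it was there at timepoint 2, at 0.77 and 0.76. The difference of these changes was -0.02 (SE 0.23, adjusted p = 0.989). The 2D rise lost its call without the library of timepoint 3 replicate 3 (0.60, adjusted p = 0.167).

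ASNS, asparagine synthetase (chromosome 7, 97852118 to 97872542, minus strand), had the most uneven libraries of the 4 synthesis genes at timepoint 3. In 2D it was at 76.2, 57.4 and 71.8 CPM at timepoint 1, 95.1, 79.4 and 116 CPM at timepoint 2, and 135 and 220 CPM at timepoint 3. In 3D it was at 74.1, 58.2 and 76.8 CPM, then 81.2, 42.4 and 82.1 CPM, then 57, 40.9 and 90.4 CPM. Among the fitted libraries of timepoint 3, replicate 3 was the highest and replicate 2 the lowest in each culture, with only those 2 replicates in 2D. The left-out 2D replicate 1 was lower than both, at 60.3 CPM, inside the 3D range. The fitted libraries of the 2 cultures did not overlap at timepoint 3. Group means were 178 ± 60.1 CPM (SD, n = 2) in 2D and 62.8 ± 25.3 CPM (SD, n = 3) in 3D. ASNS was 2.83-fold lower in 3D at timepoint 3, a log2 difference of -1.50 (SE 0.32, edgeR adjusted p = 0.0302). With the block the value was -1.57 (adjusted p = 0.000233), and at timepoint 2 it was -0.50 (adjusted p = 0.355) and passed with the block alone, at -0.53 (adjusted p = 0.0363).

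The call for ASNS at timepoint 3 rests on few libraries. It was lost without either 2D library (adjusted p = 0.0765 without replicate 2 and 0.175 without replicate 3) and without 3D replicate 1 (0.145) or replicate 2 (0.063). With all 18 libraries the log2 difference was -1.14 (adjusted p = 0.4), and it passed with all 18 and the block together, at -1.15 (adjusted p = 0.0371). Over time ASNS rose in 2D by 1.38 on the log2 scale from timepoint 1 to 3 (SE 0.32, adjusted p = 0.0213) and was at -0.15 in 3D (SE 0.29, adjusted p = 0.792). That rise was lost with all 18 libraries (1.02, adjusted p = 0.141), without 2D timepoint 1 replicate 2 (1.26, adjusted p = 0.081) and without 2D timepoint 3 replicate 3 (0.98, adjusted p = 0.264). The difference between the 2 time courses was -1.53 (SE 0.44, adjusted p = 0.297; with the block -1.59, adjusted p = 0.00728). AC079781.5, a transcript that overlaps ASNS on its strand, had counts equal to 32.2% of those of ASNS and followed it at r = 0.999 over 17 libraries, and reads of the 2 genes cannot be told apart here.

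**Figure D1:**
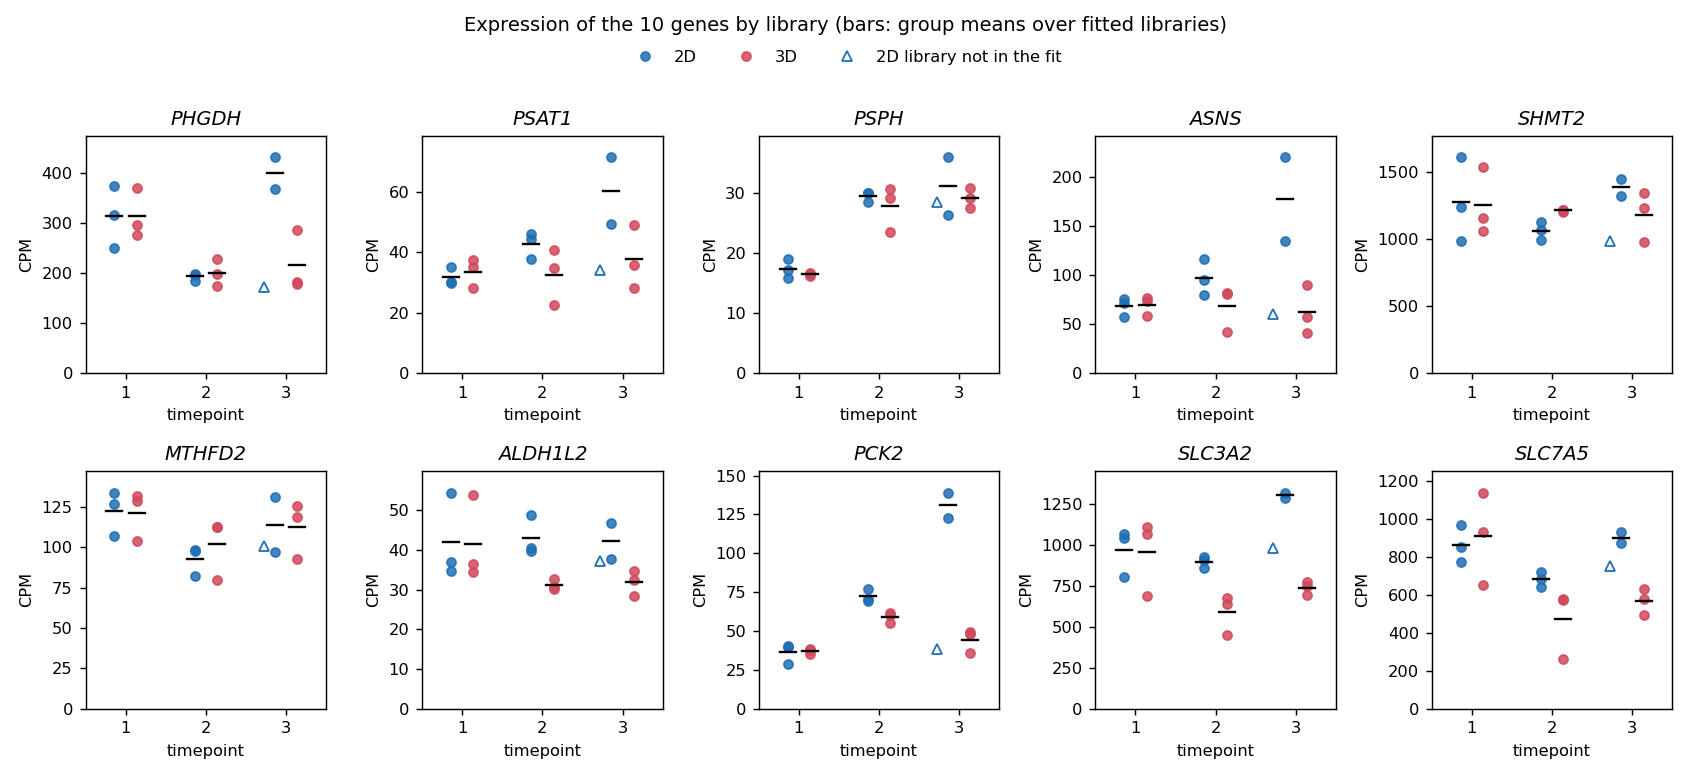
Each panel plots one gene's CPM (linear axis from 0) in every library against timepoint, with 2D in blue and 3D in red; bars are group means over fitted libraries and the open triangle is the 2D library left out of the fit. For PCK2 the fitted 2D libraries of timepoint 3 lie at 123 and 139 CPM, above the 3D libraries at 35.6 to 49.2 CPM, and the triangle lies at 38.5 CPM.

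SHMT2, the mitochondrial serine hydroxymethyltransferase (chromosome 12, 57229711 to 57234935, plus strand), was at 987 to 1610 CPM over the 6 libraries of timepoint 1. At timepoint 2 it was at 990, 1130 and 1070 CPM in 2D against 1220, 1220 and 1200 CPM in 3D, which do not overlap. At timepoint 3 it was at 1320 and 1450 CPM in 2D against 977, 1230 and 1340 CPM in 3D, which do. Its log2 difference was 0.19 at timepoint 2 (SE 0.19, edgeR adjusted p = 0.599) and -0.23 at timepoint 3 (SE 0.21, adjusted p = 0.568).

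MTHFD2, the mitochondrial methylenetetrahydrofolate dehydrogenase (chromosome 2, 74198615 to 74217565, plus strand), lay between 79.7 and 134 CPM in all 17 libraries. At timepoint 3 it was at 96.9 and 131 CPM in 2D against 119, 92.7 and 126 CPM in 3D, and the cultures overlapped at every timepoint. The log2 difference there was -0.02 (SE 0.20, edgeR adjusted p = 0.97). Its log2 change from timepoint 1 to 2 was -0.40 in 2D and -0.26 in 3D, which did not pass alone (adjusted p = 0.245 and 0.377) and fell with the block (adjusted p = 0.00839 and 0.0392).

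ALDH1L2, the mitochondrial 10-formyltetrahydrofolate dehydrogenase (chromosome 12, 105019790 to 105084458, minus strand), was at 40.5, 39.8 and 48.9 CPM in 2D against 30.7, 30.3 and 32.7 CPM in 3D at timepoint 2. At timepoint 3 it was at 37.8 and 46.9 CPM in 2D against 34.8, 28.4 and 32.5 CPM in 3D. All 3D libraries lay below all 2D libraries at both timepoints, by differences that did not pass: -0.46 on the log2 scale at timepoint 2 (SE 0.20, edgeR adjusted p = 0.207) and -0.41 at timepoint 3 (SE 0.22, adjusted p = 0.321). C12orf45 overlaps ALDH1L2 on the opposite strand with counts equal to 51.0% of it, and without knowledge of the strand setting the reads of the 2 genes cannot be told apart.

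PCK2, mitochondrial phosphoenolpyruvate carboxykinase (chromosome 14, 24094138 to 24104130, plus strand), had the smallest p of the members at timepoint 3. In 2D it was at 40.4, 28.8 and 39.5 CPM at timepoint 1, 70.5, 77.1 and 69.6 CPM at timepoint 2, and 123 and 139 CPM at timepoint 3, each group above the one before. In 3D it was at 38.1, 38.4 and 35 CPM, then 60.3, 61.5 and 55.4 CPM, then 35.6, 47.9 and 49.2 CPM. PCK2 therefore stepped up in both cultures at timepoint 2 and overlapped its first level at timepoint 3 in 3D, where the value of the last step, -0.42 on the log2 scale, did not pass (adjusted p = 0.886).

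By edgeR PCK2 was 2.96-fold lower in 3D at timepoint 3, a log2 difference of -1.57 (SE 0.17, adjusted p = 0.000263; group means 131 ± 11.4 CPM in 2D against 44.3 ± 7.54 CPM in 3D). It stayed called without any one of the 5 libraries, at -1.66 to -1.43 (adjusted p of 0.00109 to 0.00617). With all 18 libraries it was -1.18 (adjusted p = 0.292), and with all 18 and the block -1.14 (adjusted p = 0.0412). In 2D PCK2 rose 3.62-fold from timepoint 1 to 3, by 1.86 on the log2 scale (SE 0.18, adjusted p = 2.41e-05), and its change in 3D was 0.25 (SE 0.16, adjusted p = 0.338). The difference of the 2 changes was -1.61 (SE 0.24, adjusted p = 0.0128), and no other member passed this test in the filtered fit of 17 libraries without the block. With no filter on low counts ASNS passed too (adjusted p = 0.000248). The call for PCK2 was lost without 2D timepoint 3 replicate 3 (-1.52, adjusted p = 0.0745), with the 4 groups fitted alone (adjusted p = 0.0606) and with all 18 libraries (-1.22, adjusted p = 0.98). The first step, to timepoint 2, was a rise in both cultures, by 1.00 in 2D (adjusted p = 0.00141) and 0.67 in 3D (adjusted p = 0.0114). Both calls were lost with all 18 libraries (adjusted p = 0.0741 and 0.16), and the one in 3D with its groups compared alone (0.0654).

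SLC3A2, the heavy chain of the CD98 carrier (chromosome 11, 62880872 to 62888855, plus strand), was at 1070, 1040 and 804 CPM in 2D against 1110, 1070 and 687 CPM in 3D at timepoint 1. At timepoint 2 it was at 927, 909 and 857 CPM in 2D against 451, 675 and 640 CPM in 3D. By timepoint 3 it was at 1320 and 1290 CPM in 2D against 752, 775 and 694 CPM in 3D. The cultures did not overlap at the later timepoints. The log2 difference was -0.61 at timepoint 2 (SE 0.19, edgeR adjusted p = 0.104; with the block -0.60, adjusted p = 0.0307) and -0.82 at timepoint 3 (SE 0.21, adjusted p = 0.068; with the block -0.84, adjusted p = 0.0158). With all 18 libraries the latter was -0.69 (adjusted p = 0.353), and with the block too it passed at the same size (adjusted p = 0.0393).

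SLC7A5, the light chain LAT1 that forms the transport path (chromosome 16, 87830023 to 87869507, minus strand), moved with its partner. It was at 853, 967 and 774 CPM in 2D against 935, 1140 and 653 CPM in 3D at timepoint 1, at 641, 722 and 685 CPM and 264, 575 and 580 CPM at timepoint 2, and at 931 and 873 CPM and 496, 631 and 579 CPM at timepoint 3. As for SLC3A2, 3D replicate 1 of timepoint 2 was the lowest library. The log2 difference was -0.53 at timepoint 2 (SE 0.25, edgeR adjusted p = 0.253) and -0.67 at timepoint 3 (SE 0.28, adjusted p = 0.212), and neither passed with the block (adjusted p = 0.0957 and 0.151). Over all 18 libraries the latter was -0.58 (adjusted p = 0.442). Within 3D both carrier genes fell from timepoint 1 to 2, SLC3A2 by 0.70 (adjusted p = 0.0247) and SLC7A5 by 0.94 (adjusted p = 0.0213). Those falls were lost without 3D timepoint 2 replicate 1, at -0.54 (adjusted p = 0.0963) and -0.65 (adjusted p = 0.0567). They were lost too without timepoint 1 replicate 1 (adjusted p = 0.108 and 0.0588) or replicate 2 (0.0995 and 0.107), and for SLC3A2 without timepoint 2 replicate 3 (0.0522). In 2D the matching values were -0.12 and -0.34, with adjusted p of 0.837 and 0.539.

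**Figure D2:**
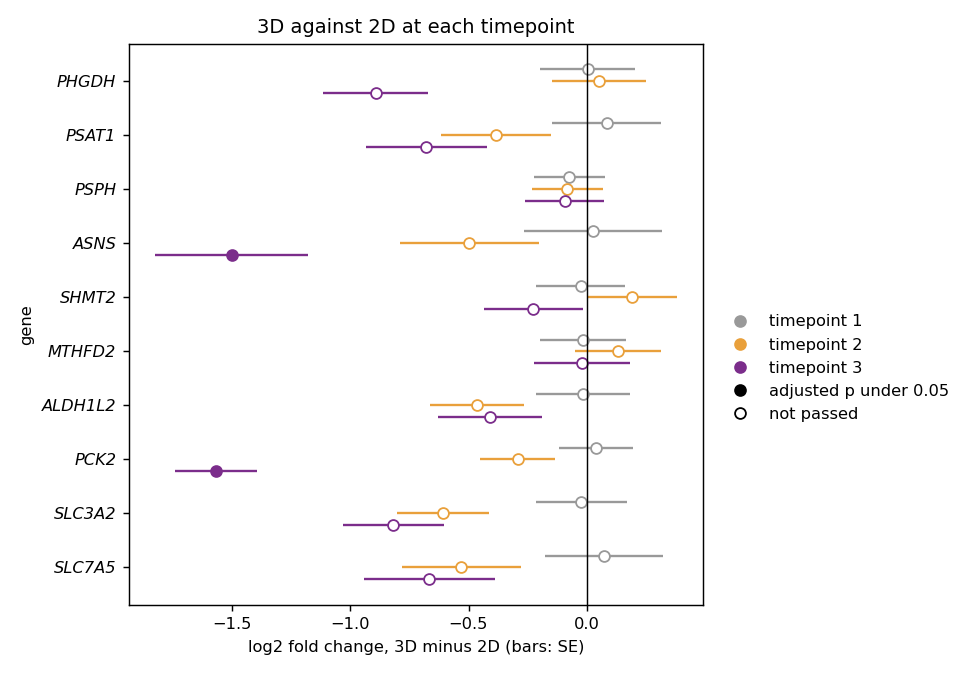
Each row is one gene, with the log2 fold change of 3D minus 2D at timepoints 1, 2 and 3 and bars of 1 SE; filled points passed edgeR's test at an adjusted p under 0.05. At timepoint 1 all 10 points lie between -0.07 and 0.08, and at timepoint 3 the filled points are ASNS at -1.50 and PCK2 at -1.57.

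As a group the members were alike in 2D and 3D at timepoint 1. Their log2 differences ran from -0.07 to 0.08 with SE of 0.15 to 0.29, and edgeR called 0 of 10, against a background of 0% of the 18592 genes. At an unadjusted p under 0.05 there were 0 members and 244 genes, and DESeq2 and limma-voom called 0 genes. At timepoint 2 edgeR called 0 of 10 members, against 1.49% of all genes, with 2 members at an unadjusted p under 0.05 against 3733 genes, or 20.1%. Limma-voom called 0 members and 407 genes, and DESeq2 called 1 member, SLC3A2, and 1336 genes. With the block 2 members were lower, ASNS and SLC3A2, against 15.9% of all genes in either direction and 6.86% lower. The median log2 difference of the members was -0.34, and that of all genes -0.03. At this timepoint the ratio of summed counts to header totals was 4.96 to 5.26 in 2D against 5.54 to 5.73 in 3D, and its part in these differences was not tested.

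At timepoint 3 edgeR called 2 of 10 members, both lower in 3D, against 1.5% of all genes in either direction and 1.26% lower. With the block 5 of 10 were lower (PHGDH, PSAT1, ASNS, PCK2 and SLC3A2), against 5.3% of all genes lower. Over the fitted libraries the CPM of 2D and 3D did not overlap for 7 of 10 members, all lower in 3D. That compares with 39% of all genes in either direction and 20.2% lower. With the left-out 2D library PHGDH, PSAT1, ASNS and PCK2 overlapped. It lay above the 3D range for ALDH1L2 (37.3 CPM), SLC3A2 (981 CPM) and SLC7A5 (753 CPM). The share of all genes with this library was not counted. All 10 log2 differences lay below 0, under either other scaling too, with a median of -0.67 against 0.015 for all genes. Those of PSPH and MTHFD2 were close to 0 and turned positive without 2D replicate 3 (0.15 and 0.22), and that of MTHFD2 was 0.04 with all 18 libraries. The luminal marker sums, nearly all KRT8 and KRT18, were 738 to 786 CPM in 2D against 470 to 623 CPM in 3D at timepoint 3. KRT8 did not overlap between the fitted libraries of the cultures, at 407 and 425 CPM against 237 to 303 CPM, nor did GATA3 and FOXA1. The left-out 2D library was at 220 CPM for KRT8, below the 3D range, and above that range for GATA3 and FOXA1. KRT18 did overlap, at 316 and 348 CPM against 224 to 338 CPM. The part of these genes in the members' differences was not tested. With all 18 libraries edgeR called 0 members and 0 genes. With the block added it called 3 members, ASNS, PCK2 and SLC3A2, and 1052 genes in either direction. The authors' deposited table for timepoint 3, from a limma fit, gives -1.61 for PCK2 (adjusted p = 0.000162), -1.56 for ASNS (0.0225), -0.95 for PHGDH (0.0338) and -0.85 for SLC3A2 (0.0556).

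**Figure D3:**
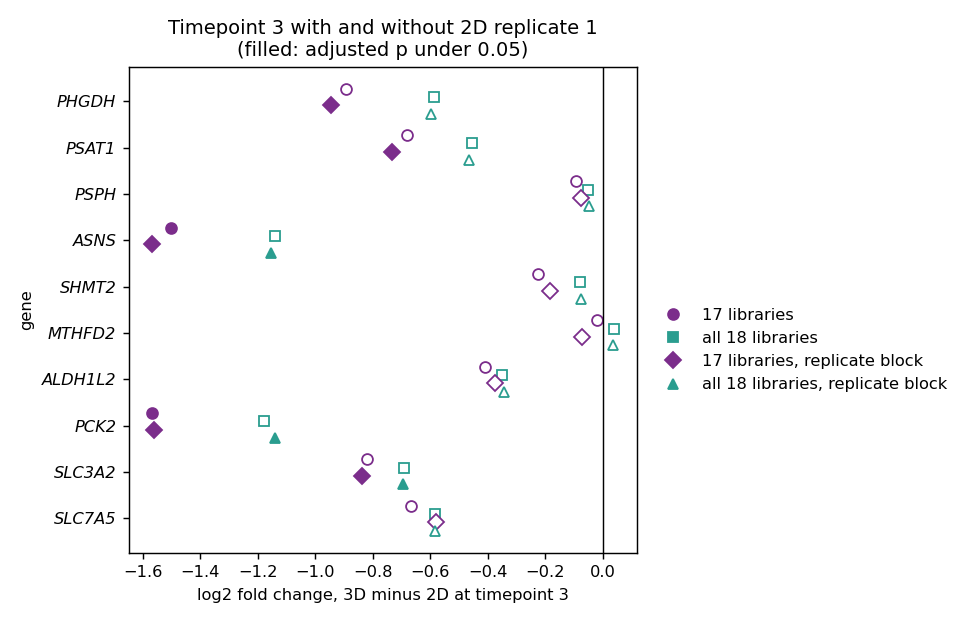
Each row is one gene, with its log2 fold change of 3D minus 2D at timepoint 3 from 4 fits, with 17 or all 18 libraries and with or without the replicate block; filled symbols passed at an adjusted p under 0.05. Adding the 18th library moves PCK2 from -1.57 to -1.18 and ASNS from -1.50 to -1.14, and neither is then filled unless the block is added.

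The changes over time were counted within each culture. Marker sums moved over the same span. From timepoint 1 to 2 the blood and endothelial sums went from 7.07 to 8.13 CPM up to 16.2 to 20.3 CPM in 2D, and from 7.29 to 9.31 CPM up to 14.8 to 21.3 CPM in 3D. Nearly all of that rise was CD68, at 5.74 to 6.57 CPM and then 14.3 to 18.6 CPM in 2D. In 3D CD68 was at 5.61 to 8.35 CPM and then 13.8 to 20.8 CPM. Luminal sums in 3D, nearly all from KRT8 and KRT18, were 846 to 1420 CPM at timepoint 1 and 470 to 623 CPM at timepoint 3. The part of these markers in the members' changes was not tested. In 2D edgeR called 2 of 10 members higher and 0 lower at timepoint 2 against 1 (PSPH and PCK2), against 5.87% of all genes; with the block PHGDH and MTHFD2 were lower as well, against 13.7%. From timepoint 1 to 3 in 2D 4 of 10 were higher and 0 lower (PSAT1, PSPH, ASNS and PCK2), against 4.86% of all genes and 2.5% higher, with a median of 0.39 for the members and -0.02 for all genes. In 3D 5 of 10 were called at timepoint 2 against 1, PSPH and PCK2 higher and PHGDH, SLC3A2 and SLC7A5 lower, against 15.1% of all genes. In 3D from timepoint 1 to 3 1 of 10 was called, PSPH, against 11% of all genes, and with the block PHGDH and SLC7A5 were lower too (adjusted p = 0.0297 and 0.0374), against 23.9%.

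Between timepoints 2 and 3 edgeR called 0 members and 0% of genes in 2D, and 0 members and 0% of genes in 3D. At an unadjusted p under 0.05 there were 4 members and 1268 genes in 2D, and 1 member and 951 genes in 3D. PHGDH in 2D was at 1.04 on the log2 scale (adjusted p = 0.527), PCK2 at 0.86 (0.491) and ASNS at 0.88 (0.709). DESeq2 called the first 2 of these, among 24 genes called over the whole table. In 3D it called 0 members and 29 genes. Limma-voom called 0 members and 0 genes in either culture.

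The test of whether the culture difference itself changed from timepoint 1 to 3 called 1 of 10 members, PCK2, against 0.183% of all genes, and with the block 2, PCK2 and ASNS, against 1.56%. Values for the rest ran from -0.90 for PHGDH (adjusted p = 0.436) to -0.003 for MTHFD2, with -0.76 for PSAT1 (0.593), -0.79 for SLC3A2 (0.495) and -0.74 for SLC7A5 (0.622). The same test from timepoint 2 to 3 called 0 members and 0% of genes by edgeR, with 3 members and 869 genes at an unadjusted p under 0.05. Limma-voom called 0 members and 0 genes there. DESeq2 called 6 genes over the whole table, among them 1 member, PCK2, whose edgeR value was -1.27 (adjusted p = 0.403).

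**Figure D4:**
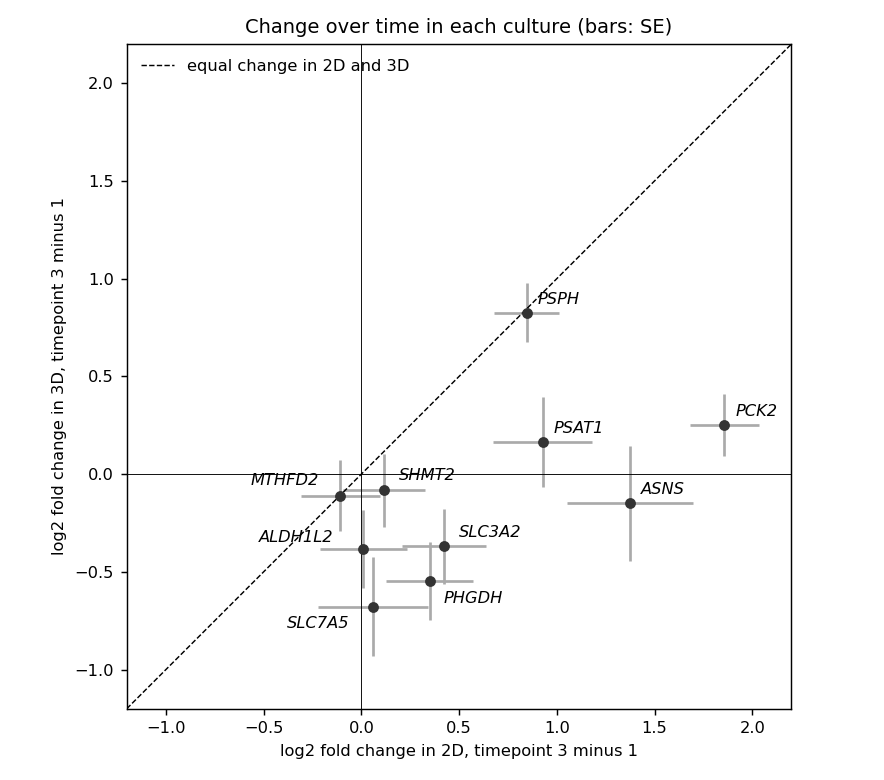
Each point is one gene, with its log2 fold change from timepoint 1 to 3 in 2D on the x axis and in 3D on the y axis, bars of 1 SE, and a dashed line of equal change. PSPH lies on the line at 0.85 and 0.83, while PCK2, at 1.86 and 0.25, and ASNS, at 1.38 and -0.15, lie far below it.

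The members did not form one block over the libraries. The Pearson r of each member's log2 CPM with the mean of the other 9, over 17 libraries that share groups and replicate numbers, was 0.854 for ASNS, 0.771 for PSAT1, 0.654 for PHGDH and 0.575 for SLC3A2. It was 0.461 for PCK2, 0.349 for SLC7A5, 0.297 for ALDH1L2, 0.23 for MTHFD2, 0.196 for SHMT2 and -0.013 for PSPH. PSAT1 and ASNS followed each other across libraries (r = 0.931) and also in their deviations from the group means (r = 0.95, Spearman's rho 0.931, and r = 0.914 without the 2 libraries farthest out). ASNS and MTHFD2 shared those deviations (r = 0.94, rho 0.966 and 0.902) although r over the libraries themselves was 0.318. The carrier partners SLC3A2 and SLC7A5 had r = 0.887 across libraries and 0.83 in the deviations (rho 0.716, and 0.645 without the 2 farthest). ASNS and PCK2, the called members of timepoint 3, had r = 0.721 across libraries and 0.14 in the deviations.

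Among the 13563 genes with a mean count of at least 50, those whose log2 CPM was most like that of ASNS over the 17 libraries, after the overlapping AC079781.5, were AZGP1 (r = 0.886), MAP7 (0.841), CARS (0.835) and IFRD1 (0.827). CARS encodes the cysteinyl-tRNA synthetase. For the mean of the 10 members they were AC079781.5 (0.887), AZGP1 (0.857), the tRNA synthetases MARS (0.851) and YARS (0.817), and ALDH3A1 (0.814).

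Other genes of the same pathways were counted by lists. Their counts at timepoint 3 come from the 17 fitted libraries unless stated; with all 18 edgeR called 0 genes there, so that no gene of these lists passed. The cytosolic or alternative counterparts of the mitochondrial members were SHMT1, MTHFD1, MTHFD2L, ALDH1L1 and PCK1, of which PCK1 did not pass the filter. None of the 4 tested was called by edgeR between the cultures. With the block and all 18 libraries 1 was higher in 3D at timepoint 3, where 1052 of all genes passed in either direction. At timepoint 3 SHMT1 was at 65.6 ± 3.74 CPM in 2D against 55.5 ± 6.75 CPM in 3D (SD, n = 2 and 3), and MTHFD1 at 368 ± 99.7 and 444 ± 106 CPM. MTHFD2L, a second mitochondrial dehydrogenase of the MTHFD2 step, was at 12.4 ± 1.42 CPM in 2D against 20.6 ± 2.27 CPM in 3D, a log2 difference of 0.74 (edgeR adjusted p = 0.133; with the block 0.70, adjusted p = 0.00758).

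Of 19 tested genes of folate use and glycine cleavage, edgeR called 0 at timepoint 3. Their median was 0.37 on the log2 scale, against 0.015 for all genes. With the block 4 were higher and 2 lower in 3D, against 4.45% of all genes higher and 5.3% lower. With the block and all 18 libraries 3 were higher and 2 lower, where 1052 of all genes passed in either direction. TYMS, thymidylate synthase, was at 45.7 ± 15.3 CPM in 2D against 89.8 ± 28.2 CPM in 3D (adjusted p = 0.105; with the block 0.0085). All 11 purine synthesis genes lay above 0 at timepoint 3, with a median of 0.27 against 0.015 for all genes, and 0 passed. The share of all genes above 0 was not counted. With the block 1 purine gene passed, PAICS (0.50, adjusted p = 0.0329), against 4.45% of all genes higher. With the block and all 18 libraries 0 did. Of 9 tested methionine cycle and transsulfuration genes 0 were called there with or without the block.

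Among 22 other tested amino acid carriers, 3 were lower in 3D at timepoint 3 and 0 higher, against 1.26% of all genes lower and 0.231% higher. With the block 5 were lower, against 5.3% of all genes. With the block and all 18 libraries 4 were lower, where 1052 of all genes passed in either direction. SLC6A9, the glycine transporter GLYT1, was at 42.8 ± 6.66 CPM in 2D against 9.4 ± 2.74 CPM in 3D, 4.55-fold lower (log2 difference -2.19, SE 0.28, edgeR adjusted p = 0.000982). It was lower at timepoint 2 as well, at 21.6 ± 4.75 and 9.81 ± 3.19 CPM (adjusted p = 0.0432), and its culture difference changed between timepoints 1 and 3 by -2.06 (adjusted p = 0.0363; with all 18 libraries -1.64, adjusted p = 0.98). SLC1A4, a carrier of serine and alanine, was at 6.16 ± 1.47 and 1.9 ± 0.318 CPM (adjusted p = 0.0198). SLC43A1, a carrier of large neutral amino acids, was at 1.18 ± 0.0658 and 0.17 ± 0.163 CPM (adjusted p = 0.0414). Of 18 tested genes of aspartate, glutamate, proline and alanine synthesis, 1 was lower in 3D at timepoint 3, GPT2, the mitochondrial alanine aminotransferase, at 34.6 ± 4.33 CPM in 2D against 21.4 ± 0.0915 CPM in 3D (adjusted p = 0.0218). Over all genes 1.26% were lower. With the block 3 of the list were lower, against 5.3% of all genes, and with the block and all 18 libraries 0 were.

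The list of 20 integrated stress response regulators was known from earlier results to move in these data. Of these 7 were lower in 3D at timepoint 3 and 0 higher, against 1.26% of all genes lower and 0.231% higher. With all 18 libraries 0 passed. With the block as well 6 were lower, where 1052 of all genes passed in either direction. ATF4, with 255 ± 21.7 CPM in 2D against 218 ± 23.5 CPM in 3D, was not among the 7 (log2 difference -0.23, SE 0.28, edgeR adjusted p = 0.68). DDIT3, which encodes CHOP, was at 36.5 ± 3.74 and 8.73 ± 0.931 CPM (-2.06, adjusted p = 9.5e-05), and TRIB3, a pseudokinase induced by ATF4 and CHOP, at 91.9 ± 12.2 and 33 ± 9.61 CPM (-1.48, adjusted p = 0.00191). SESN2, which senses leucine, was at 11.4 ± 0.206 and 3.58 ± 0.609 CPM (-1.67, adjusted p = 0.000764), and CHAC1, which degrades glutathione, at 9.26 ± 2.87 and 0.641 ± 0.125 CPM (-3.85, adjusted p = 0.00312). ATF3 was at 75.9 ± 6.08 and 3.52 ± 0.226 CPM (adjusted p = 3.79e-05), and PPP1R15A, the phosphatase subunit GADD34, at 20.3 ± 3.17 and 4.28 ± 0.141 CPM (adjusted p = 0.000251). In 2D DDIT3 rose from timepoint 1 to 3 by 2.31 on the log2 scale (adjusted p = 9.9e-06), as PCK2 and ASNS did, and in 3D its change was 0.42 (adjusted p = 0.147). The part of this response in the changes of the 10 members was not tested.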

How the data were processed

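Libraries were poly-A RNA, read as single 50 bp ends. Per the submitters' processing notes STAR 2.7.1a, HOMER, edgeR and limma were used on hg38; the sources used here do not give annotation, strand or counting settings. The authors deposited whole-number counts of 60662 genes in 18 libraries, not normalised. The deposited log2 CPM values were not used. The authors' deposited comparison tables hold, per the file headers, log2 fold changes with p-values and adjusted p-values from limma, and 2 score columns (its t and B statistics) that were not used. Columns left unused for want of a sample numbered 0.

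Groups came from the titles. In edgeR 4.0.16 (R 4.3.3) 17 libraries of all groups were fitted together after filterByExpr and TMM scaling, with the quasi-likelihood F test and Benjamini-Hochberg adjustment over 18592 genes, called at an adjusted p under 0.05. The SE is the log2 fold change divided by the square root of F. Other settings used DESeq2 1.42.0 and voom of limma 3.58.1. A run on simulated data was also made. Its outcome and the tests it covered are not given here, so no conclusion about any of these tests is drawn from it.

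In the labels' descriptions each replicate number carries one date-like number, the same in all groups. Libraries of one number deviated together from their group means, with correlations of 0.186 to 0.513 in all 8 pairs of 2D and 3D libraries. The block is therefore taken as a pairing. With n = 2 the 2D libraries of timepoint 3 deviate by opposite amounts, so their correlations are not separate evidence. Pairs across timepoints were not checked. What else a number marks is not stated.

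The 10 members, the lists and the rule for naming other genes were chosen with earlier results of these data known. That rule took from each list up to 4 genes that passed, smallest p first, the counterpart enzymes, ATF4, DDIT3, TRIB3, SESN2 and CHAC1, and the 5 genes most like ASNS or the members' mean; TYMS and PAICS were named after their values were seen, and items withheld for evaluation are not reported here. The motifs searched were also chosen afterwards. CPM means are given with SD. The number of libraries limits precision, and no counting intervals are given because a read may be counted more than once. Of 18 pseudogene copies of the members in the table none exceeded 13 counts in a library.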

Additional observations from a re-analysis of the deposited data

Results flagged for a closer look

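The time course of PCK2 differed between the cultures. Its log2 change from timepoint 1 to 3 was 1.86 in 2D and 0.25 in 3D, and the test of the difference gave -1.61 (edgeR adjusted p = 0.0128), with 2D libraries of timepoint 3 at 123 and 139 CPM and 3D libraries at 35.6, 47.9 and 49.2 CPM. The 2D library left out of the fit was at 38.5 CPM, and with it the value was -1.22 (adjusted p = 0.98). No group of 4 or more libraries was there to be searched for single deviating libraries.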

How the results depend on the processing

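Counts of members called moved with the processing. At timepoint 3, where 2 were lower in 3D, DESeq2, upper-quartile scaling, no filter and a filter at a mean count of 100 gave 4 each, the replicate block 5, and all 18 libraries 0. Over the whole table the 278 genes called there became 1021, 308, 1625, 306, 1813 and 0 under those settings in turn. At timepoint 2, with 0, DESeq2 gave 1, the block 2, and the block with all 18 libraries 1. The 277 genes called over the table became 1336, 2949 and 2839 in turn. In 2D from timepoint 1 to 3, with 4, all 18 libraries gave 2 and the groups compared alone 2. There 903 genes over the table became 958 and 537. In 3D over the same span, with 1, DESeq2, no filter, the stricter filter and the block with all 18 libraries gave 2 each and the block 3. The 2049 genes over the table became 2820, 2794, 1843, 4366 and 4447 in turn. From timepoint 1 to 2, the 2 calls in 2D were 1 with all 18 libraries and 4 with the block. The 5 in 3D were 3 with all 18 libraries, with or without the block, and 0 with the groups alone. From timepoint 2 to 3 in 2D, with 0, DESeq2 and no filter gave 2 each, while 0 genes over the table became 24 and 168. For the interaction from timepoint 1 to 3, with 1, no filter and the block gave 2 each, while all 18 libraries (with or without the block) and the groups alone gave 0. The 34 genes over the table became 479 with no filter, 290 with the block and 11 with the groups alone. With all 18 libraries they became 0, with or without the block. For the interaction from timepoint 2 to 3, with 0, DESeq2 and no filter gave 1 each, while 0 genes over the table became 6 and 129.

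Without each library in turn, the count at timepoint 3 was 1 without 2D replicate 2 or 3 or 3D replicate 1 or 2, the one being PCK2, and 3 without 3D replicate 3. In 2D from timepoint 1 to 3 it ranged from 1 (without timepoint 3 replicate 3) to 3, with 2 without timepoint 1 replicate 2. In 3D it ranged from 1 to 3 (without timepoint 1 replicate 3) from timepoint 1 to 3, with 2 without timepoint 3 replicate 3. For the step from timepoint 1 to 2 in 3D it was 2 without timepoint 1 replicate 1 or 2, and 3 without timepoint 2 replicate 1 or 3. The interaction from timepoint 1 to 3 was 0 without 2D timepoint 3 replicate 3 and 1 otherwise. Where 1 library of 2D timepoint 3 remained, it was assumed to vary like the other groups. The matching counts over all genes are not given for these runs, so the counts describe the members alone. No called log2 fold change turned its sign under any alternative run. Dividing counts by the number of transcripts, and the block with all 18 libraries, were added after the data were seen. The cause of these changes was not tested.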

Other observations

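Several genes of the neighbouring pathways changed with time in both cultures. ADSS1, an adenylosuccinate synthetase of purine synthesis, was at 7.46 ± 1.42 CPM in 2D at timepoint 1 and 27.5 ± 1.32 CPM at timepoint 2, and in 3D at 8.34 ± 0.393 and 38.3 ± 12.8 CPM. SLC7A2, a carrier of cationic amino acids, fell from 334 ± 124 to 83.2 ± 21.6 CPM in 2D and from 301 ± 103 to 54.5 ± 29.4 CPM in 3D. GLUL, glutamine synthetase, fell over the same step from 1770 ± 423 to 931 ± 156 CPM in 2D and from 1460 ± 324 to 661 ± 119 CPM in 3D. All 3 passed the edgeR test in both cultures, and a difference between their courses from timepoint 1 to 2 was not tested.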
